A study of Caenorhabditis elegans with 12 samples.

Results

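Glutathione S-transferases (GSTs) are a large family of enzymes in Caenorhabditis elegans, and their RNA levels were followed across 2 genotypes and 2 adult ages. Members were taken by gene symbol, as the genes named gst, gsto or gstk followed by a number. This gave 49 of the 46778 genes listed in the deposited counts: 44 gst genes, 3 gsto genes of the omega class and 2 gstk genes of the kappa class. All 49 are annotated as protein-coding.

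GSTs join the tripeptide glutathione to reactive, electrophilic compounds, which makes these more soluble and lets transporters export them from the cell. Some members have narrower tasks, such as the zeta class, which takes part in the breakdown of tyrosine, and the pi class enzyme gst-10, which conjugates the lipid peroxidation product hydroxynonenal. In the worm many gst genes are targets of SKN-1, the homologue of mammalian Nrf transcription factors, and gst-4 is the usual reporter of its activity. The daf-2 gene encodes the insulin and insulin-like growth factor receptor of the worm, and reduced daf-2 activity is known to extend lifespan and to raise resistance to oxidative stress.

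The samples were whole adult animals in 4 groups of 3 biological repeats, which gave 12 libraries. The groups were daf-2(e1370) animals of strain CF1041 at day 9 of adulthood, the same mutant at day 1, and wild type of strain N2 at day 9 and at day 1. All 4 groups were fed OP50 bacteria and were kept on 50 µM FUdR, an inhibitor of DNA synthesis that stops the production of progeny. The e1370 allele is a missense change present in every cell, and only 1 mutant strain was used, so allele and strain background cannot be told apart.

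Total counts ran from 20322128 to 47447136 per library. The daf-2 transcript was at 87.3 to 182 CPM (a gene's counts relative to the library's size as adjusted by edgeR's TMM factor) over the 12 libraries, and since e1370 changes the sequence of the protein, the level of the transcript does not check the genotype labels. Replicate 3 of the day 9 animals gave the highest value of its group for 19 of 39 tested members in daf-2 and for 23 of 39 in wild type. Calls of GST genes that are lost without 1 library are named beside the results. Each log2 change is given ± its standard error with an adjusted p from edgeR's quasi-likelihood test, Benjamini-Hochberg adjusted over 15523 genes, and "called" means an adjusted p under 0.05. In RNA from whole animals, fewer cells of a type and less RNA per cell cannot be told apart.

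Of the 49 members, 39 passed the filter on low counts and were tested. The other 10 were gst-2, gst-8, gst-17, gst-18, gst-19, gst-25, gst-31, gst-32, gst-34 and gst-37. None of these 10 exceeded 0.743 CPM in any library, and each had between 16 and 102 counts summed over the 12 libraries. All 49 members had at least 1 count in the series. The mean level over the 12 libraries was over 100 CPM for 3 members, between 10 and 100 CPM for 15, between 1 and 10 CPM for 13 and under 1 CPM for 18.

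The genes lie close together in parts of the genome. On WBcel235, 26 of the 49 are on chromosome II, 9 on V, 5 on IV, 4 on III, 3 on X and 2 on I. When neighbouring members no more than 10 kb apart were joined, 25 members fell into 4 runs. A run of 9 genes (gst-20, gst-24, gst-15, gst-14, gst-12, gst-16, gst-19, gst-17 and gst-18) covers 22.7 kb of chromosome II, from 13608154 to 13630887. A second run of 9 (gst-26, gst-27, gst-28, gst-29, gst-39, gst-31, gst-32, gst-34 and gst-35) covers 21.6 kb of the same chromosome, from 15163817 to 15185389. All genes of both runs are on the minus strand. The other runs hold gst-6, gst-7, gst-8 and gst-9 (chromosome II, 4879891 to 4893573) and gst-3, gst-2 and gst-4 (chromosome IV, 10139380 to 10143099). Exons of 12 members share bases with another annotated gene, and because the libraries did not mark strand, reads from shared bases cannot be assigned. The longest such stretches were 351 bp between gst-17 and gst-18, 93 bp between gst-36 and scav-5, and 89 bp between gst-2 and K08F4.15. Members of these runs can be similar in sequence, and the sources used here do not say how a read that fits several of them was counted, so values of neighbouring members carry that uncertainty.

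A few genes supplied most of the family's RNA. Per kilobase of exon, gst-24, gst-1 and gst-7 were the 3 most abundant members in every group. They made up 64.1% of the family's summed level per kilobase in daf-2 at day 9 and 52% in daf-2 at day 1. In wild type the same 3 genes made up 68% at day 9 and 43.8% at day 1. In daf-2 at day 9, gst-24 averaged 273 ± 73.1 CPM per kilobase (SD, n = 3), gst-1 219 ± 19.2 and gst-7 199 ± 1.86. The libraries of gst-24 and gst-1 overlapped there, whereas those of gst-1 lay above those of gst-7. In wild type at day 9, gst-24 averaged 298 ± 34.5, gst-1 197 ± 13.8 and gst-7 191 ± 15.5 CPM per kilobase, and gst-1 and gst-7 overlapped. At day 1 gst-24 stood above all others in daf-2, at 523 ± 86.5 CPM per kilobase, while in wild type, at 270 ± 107, its libraries overlapped those of gst-1, at 251 ± 23.7.

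The next ranks changed with age. At day 1 the fourth and the fifth places belonged to gst-10 and gst-13 in both genotypes. In daf-2 at day 1 these averaged 170 ± 4.31 and 149 ± 21.7 CPM per kilobase, and in wild type at day 1 they averaged 171 ± 22.5 and 161 ± 25.5. At day 9 the fourth place was taken by gst-4 in daf-2, at 59.1 ± 21.4 CPM per kilobase, and by gst-13 in wild type, at 60.2 ± 28.9. The libraries of gst-4 and gst-13 overlapped in daf-2 at day 9. The plot of levels per kilobase shows the steep decline from the leading genes to the rest.

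**Figure D1:**
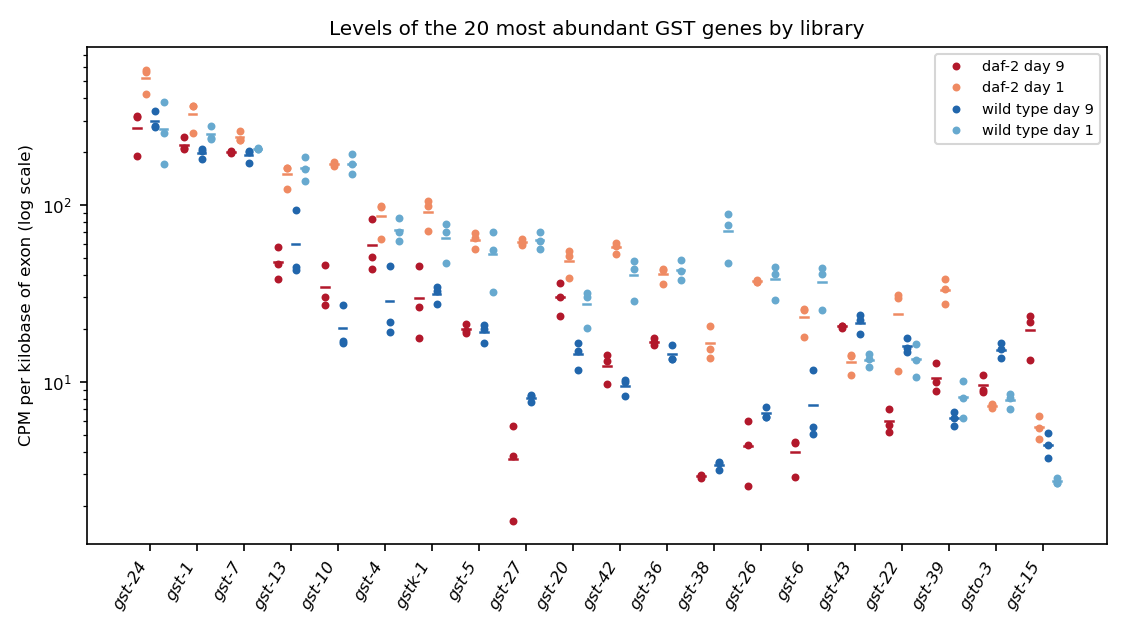
Level of the 20 GST genes with the highest mean, in CPM per kilobase of exon on a log axis. Each point is 1 library and each short bar is the mean of 3 libraries, coloured by genotype and age. The first 3 genes, gst-24, gst-1 and gst-7, have the 3 highest means in each group.

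The family's total was lower in old animals. Summed over all 49 members, daf-2 animals had 697 to 917.3 CPM at day 9 and 1374 to 1694 CPM at day 1. Wild type had 679.9 to 858.1 CPM at day 9 and 1196 to 1326 CPM at day 1. The day 9 and day 1 libraries did not overlap in either genotype. The 2 genotypes overlapped at day 9, while all 3 daf-2 libraries were above the wild-type ones at day 1. Within those day 1 totals, gst-24 alone had 416, 430.2 and 313 CPM in daf-2, against 126, 189 and 283 CPM in wild type. The day 1 difference of the total thus rests largely on 1 gene. As a share of all counts the family took 0.0815 to 0.0971% in daf-2 at day 9, 0.131 to 0.154% in daf-2 at day 1, 0.0764 to 0.0945% in wild type at day 9 and 0.109 to 0.114% in wild type at day 1.

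Day 9 against day 1 asked how the family changes as each genotype ages. In daf-2, 22 of the 39 tested members fell and 5 rose, where 21.5% of all tested genes fell and 21.9% rose, 43.3% in all. In wild type 17 fell and 6 rose, where 25.6% of all tested genes fell and 31.2% rose, 56.8% in all. The median log2 change of the tested members was -0.69 in daf-2, against 0.01 over all genes, and -0.58 in wild type, against 0.09 over all genes. Groups did not overlap for 31 of 39 members in daf-2 and for 26 of 39 in wild type, where the share among all genes was 52.8% and 64.6%. These 2 comparisons share no library. Called lower in both genotypes were 15 members, which is 15 of 22 in daf-2 and 15 of 17 in wild type: gst-1, gst-5, gst-6, gst-10, gst-13, gst-20, gst-21, gst-26, gst-27, gst-28, gst-36, gst-38, gst-42, gstk-1 and gsto-1. Called higher in both were 4 members, gst-12, gst-15, gst-43 and gsto-2. Of the 4, gsto-2 passed the filter on low counts only through its day 9 libraries. No member was called in opposite directions in the 2 genotypes. The share of all tested genes called alike in both genotypes is not given here, so whether this overlap is particular to the family was not tested. Of the age calls, 21 of 27 in daf-2 and 17 of 23 in wild type held whichever single library was left out.

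Among members with a known enzyme class, both pi class genes fell. For gst-1 (chromosome III, 9059331 to 9060181), daf-2 animals had 155, 156 and 180.4 CPM at day 9, against 271, 272 and 192 CPM at day 1. Wild type had 136, 152 and 156 CPM at day 9, against 179, 209 and 177 CPM at day 1. The ages did not overlap in either genotype. The log2 change was -0.58 ± 0.14 (adjusted p = 0.0047) in daf-2 and -0.35 ± 0.14 (adjusted p = 0.044) in wild type, and the wild-type call was lost without any 1 of the 6 libraries compared (log2 change -0.39 to -0.27, adjusted p 0.0523 to 0.145). With upper-quartile scaling it was also lost (log2 change -0.18, adjusted p = 0.234).

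The fall of gst-10 (chromosome V, 2561690 to 2564645) was much larger. Its level was 21.7, 19.6 and 32.8 CPM in daf-2 at day 9, against 119.3, 125 and 122.99 CPM at day 1. In wild type it was 12, 12.3 and 19.4 CPM at day 9, against 139.6, 122.8 and 107 CPM at day 1. Every day 9 library was thus far below every day 1 library. The log2 change was -2.31 ± 0.21 (adjusted p = 7.7e-06) in daf-2 and -3.08 ± 0.22 (adjusted p = 9.4e-07) in wild type.

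The zeta class members moved in opposite directions. The gst-42 gene (chromosome X, 11726264 to 11727936) encodes maleylacetoacetate isomerase, an enzyme of tyrosine degradation. It had 13.3, 9.84 and 14.4 CPM in daf-2 at day 9, against 61.7, 59.7 and 53.7 CPM at day 1, and 8.46, 10.2 and 10.4 CPM in wild type at day 9, against 48.6, 44 and 29.2 CPM at day 1. The log2 change was -2.22 ± 0.19 (adjusted p = 5.1e-06) in daf-2 and -2.06 ± 0.2 (adjusted p = 6e-06) in wild type. By contrast gst-43 (chromosome I, 2901325 to 2903006), the other gene of that class, rose, with a log2 change of 0.66 ± 0.15 (adjusted p = 0.0035) in daf-2 and 0.7 ± 0.15 (adjusted p = 0.0018) in wild type. Its libraries had 14.4, 14 and 14.4 CPM in daf-2 at day 9, against 9.7, 9.79 and 7.54 CPM at day 1, and 13, 16.5 and 15.5 CPM in wild type at day 9, against 8.44, 9.3 and 9.91 CPM at day 1. The ages did not overlap for either gene.

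The kappa class, whose mammalian member is found in mitochondria and peroxisomes, also split. For gstk-1 (chromosome II, 9656705 to 9657719), daf-2 animals had 20.7, 13.8 and 35.5 CPM at day 9, against 77.3, 82.2 and 55.5 CPM at day 1. Wild type had 21.6, 25.4 and 27 CPM at day 9, against 54.8, 61.4 and 36.7 CPM at day 1. It fell in both genotypes without overlap, with a log2 change of -1.62 ± 0.3 (adjusted p = 0.001) in daf-2 and -1.04 ± 0.29 (adjusted p = 0.0096) in wild type. In wild type gstk-2 (chromosome IV, 7240445 to 7242270) rose, to 4.6, 5.29 and 4.44 CPM at day 9, against 2.66, 2.4 and 2.43 CPM at day 1 (log2 change 0.94 ± 0.19, adjusted p = 0.0016). In daf-2 its change was 0.42 ± 0.19 (adjusted p = 0.091), and the interaction, which is the daf-2 age change less the wild-type age change, was -0.52 ± 0.27 (adjusted p = 0.26). Exons of gstk-2 share 65 bp with elo-3 and a small RNA gene.

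The 3 gsto genes, of the omega class, did not all move in the same direction. In daf-2, gsto-1 (chromosome III, 7945542 to 7947018), a gene known to be expressed in the intestine, had 5.16, 2.88 and 5.85 CPM at day 9, against 15.3, 16.3 and 9.6 CPM at day 1. In wild type it had 1.97, 1.88 and 1.89 CPM at day 9, against 5.68, 3.66 and 2.05 CPM at day 1. The ages did not overlap in either genotype. The log2 change was -1.57 ± 0.35 (adjusted p = 0.0034) in daf-2 and -0.97 ± 0.37 (adjusted p = 0.04) in wild type, and the wild-type call was lost without any 1 of 5 libraries, day 1 replicates 1 and 2 and all 3 day 9 replicates (log2 change -1 to -0.56, adjusted p 0.0712 to 0.21), and with upper-quartile scaling (-0.81, adjusted p = 0.0807). A low-level gene, gsto-2 (chromosome III, 8554772 to 8555744), rose in both genotypes, but it passed the filter only through its day 9 libraries. Its day 1 counts were 5, 1 and 3 in daf-2 and 4, 1 and 4 in wild type, below the minimum count of 10. The calls of gsto-2 thus rest on the age that let it be tested. It had 0.679, 0.649 and 0.56 CPM in daf-2 at day 9, against 0.206, 0.0527 and 0.129 CPM at day 1 (log2 change 2.19 ± 0.47, adjusted p = 0.0026), and 0.657, 0.613 and 0.754 CPM in wild type at day 9, against 0.208, 0.06 and 0.137 CPM at day 1 (log2 change 2.26 ± 0.48, adjusted p = 0.0017). For gsto-3 (chromosome III, 378137 to 381298) the rise was called in wild type, with 14.3, 15.4 and 12.7 CPM at day 9, against 7.5, 7.92 and 6.49 CPM at day 1 (log2 change 0.95 ± 0.15, adjusted p = 0.00025). In daf-2 the change of gsto-3 was 0.39 ± 0.15 (adjusted p = 0.055), and the interaction was -0.57 ± 0.21 (adjusted p = 0.13). That rise in daf-2 was called with upper-quartile scaling (0.51, adjusted p = 0.0122), a minimum count of 50 (0.42, adjusted p = 0.0299) and by DESeq2 (0.4, adjusted p = 0.0386).

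The 3 largest falls in daf-2 were in adjoining genes of the second run on chromosome II, gst-26, gst-27 and gst-28. In daf-2 gst-27 (15164890 to 15165731) had 4.16, 1.21 and 2.82 CPM at day 9, against 45.2, 44.1 and 47.5 CPM at day 1. In wild type it had 6.24, 5.71 and 6.2 CPM at day 9, against 52.1, 46.4 and 41.8 CPM at day 1. The log2 change was -4.11 ± 0.32 (adjusted p = 2.3e-06) in daf-2, where the fold was 17.3, and -2.95 ± 0.3 (adjusted p = 9.4e-06) in wild type. Each day 9 library was several times below each day 1 library.

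Its neighbours moved alike. At day 9 gst-28 (15166194 to 15167577) had 0.52, 0.361 and 0.456 CPM in daf-2, against 7.38, 7 and 5.57 CPM at day 1, and 0.863, 0.536 and 0.964 CPM in wild type, against 10.9, 8.58 and 6.25 CPM at day 1. The log2 change was -3.91 ± 0.3 (adjusted p = 2.3e-06) in daf-2 and -3.44 ± 0.29 (adjusted p = 2.9e-06) in wild type. For gst-26 (15163817 to 15164553) the levels were 4.12, 1.77 and 3.03 CPM in daf-2 at day 9, against 25.2, 26 and 25.2 CPM at day 1, and 4.35, 4.37 and 4.99 CPM in wild type at day 9, against 30.7, 28 and 20.03 CPM at day 1. Its log2 change was -3.13 ± 0.26 (adjusted p = 3.8e-06) in daf-2 and -2.52 ± 0.26 (adjusted p = 9.5e-06) in wild type. Neither gene's day 9 libraries overlapped those of day 1 in either genotype.

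Falls of more than 1 log2 unit in both genotypes were also called for gst-5, gst-6, gst-13, gst-21, gst-36 and gst-38. The change of gst-5 (chromosome II, 10950352 to 10951603) was -1.68 ± 0.22 (adjusted p = 0.00011) in daf-2 and -1.47 ± 0.23 (adjusted p = 0.00019) in wild type. Its levels were 14.1, 13.7 and 15.4 CPM in daf-2 at day 9, against 50.2, 47.3 and 40.8 CPM at day 1, and 12, 14.4 and 15.1 CPM in wild type at day 9, against 40.6, 51.2 and 23.3 CPM at day 1, with no overlap of the ages. For gst-13 (chromosome II, 9231457 to 9232344), daf-2 animals had 36, 29.8 and 45.2 CPM at day 9, against 126, 126 and 96.5 CPM at day 1 (log2 change -1.65 ± 0.27, adjusted p = 5e-04). Wild type had 33.3, 34.6 and 72.9 CPM at day 9, against 146, 125 and 106 CPM at day 1 (log2 change -1.42 ± 0.27, adjusted p = 0.00089). Replicate 3 was the highest of the day 9 libraries of gst-13 in both genotypes but stayed below all day 1 libraries. The calls of gst-21, a gene near 1 CPM, were lost in daf-2 without day 1 replicate 1 or day 9 replicate 2 or 3 (log2 change -1.38 to -1.05, adjusted p 0.0623 to 0.113). In wild type they were lost without day 1 replicate 2 or day 9 replicate 1 or 3 (-1.24 to -1.02, adjusted p 0.0825 to 0.12).

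Among the 3 most abundant genes, gst-7 had the smallest change in daf-2. There gst-7 (chromosome II, 4882062 to 4883358) had 149.8, 147 and 148 CPM at day 9, against 173, 174 and 194 CPM at day 1 (log2 change -0.28 ± 0.09, adjusted p = 0.018). That call was lost without day 9 replicate 2 (log2 change -0.28, adjusted p = 0.0574) and with upper-quartile scaling (-0.15, adjusted p = 0.159). In wild type it had 129, 150.2 and 148 CPM at day 9, against 156, 155 and 154 CPM at day 1, and its change was -0.13 ± 0.09 (adjusted p = 0.23). For gst-24 (chromosome II, 13610443 to 13611366) daf-2 animals had 234.8, 139 and 231 CPM at day 9, against 416, 430.2 and 313 CPM at day 1 (log2 change -0.94 ± 0.27, adjusted p = 0.013). The ages did not overlap in daf-2, but the call was lost without day 9 replicate 2, the lowest library (log2 change -0.73, adjusted p = 0.054). In wild type gst-24 had 203, 207 and 249 CPM at day 9, against 126, 189 and 283 CPM at day 1, a spread within which its change of 0.14 ± 0.26 (adjusted p = 0.67) was not called. The interaction for gst-24 was -1.08 ± 0.37 (adjusted p = 0.11).

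The SKN-1 reporter gene gst-4 (chromosome IV, 10142225 to 10143099) fell in wild type. It had 16, 14 and 32.9 CPM at day 9, against 61.8, 51.3 and 45.9 CPM at day 1, without overlap (log2 change -1.34 ± 0.32, adjusted p = 0.004). In daf-2 it had 37, 31.6 and 61 CPM at day 9, against 71.6, 71.8 and 47.1 CPM at day 1, and replicate 3 of each age brought the groups into overlap (log2 change -0.55 ± 0.31, adjusted p = 0.17). The difference between these changes was 0.78 ± 0.45 (adjusted p = 0.3), so the genotypes were not shown to differ. Exons of gst-4 share 65 bp with dhs-12.

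Few genes rose. The gst-15 gene (chromosome II, 13611770 to 13613196) had 10.03, 17.8 and 16.5 CPM in daf-2 at day 9, against 4.17, 4.84 and 3.6 CPM at day 1, a log2 change of 1.82 ± 0.23 (adjusted p = 7.7e-05) without overlap. In wild type it had 2.79, 3.33 and 3.9 CPM at day 9, against 2.03, 2.04 and 2.15 CPM at day 1 (log2 change 0.68 ± 0.24, adjusted p = 0.029), also without overlap. The wild-type call was lost without any 1 of 5 libraries, the 3 day 1 replicates and day 9 replicates 2 and 3 (log2 change 0.56 to 0.71, adjusted p 0.0592 to 0.106). In the same run gst-12 (13616682 to 13618061) rose in daf-2 with a log2 change of 1.73 ± 0.25 (adjusted p = 2e-04), where it had 4.28, 5.07 and 5.33 CPM at day 9, against 1.28, 1.58 and 1.59 CPM at day 1. In wild type gst-12 had 5.96, 5.09 and 7.42 CPM at day 9, against 3.38, 5.22 and 3.08 CPM at day 1, groups that overlapped, and its call (0.67 ± 0.24, adjusted p = 0.03) was lost without day 1 replicate 1 or 3 or day 9 replicate 1 or 3 (log2 change 0.51 to 0.69, adjusted p 0.0587 to 0.126). The heat map sets these few rising genes against the general fall.

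**Figure D2:**
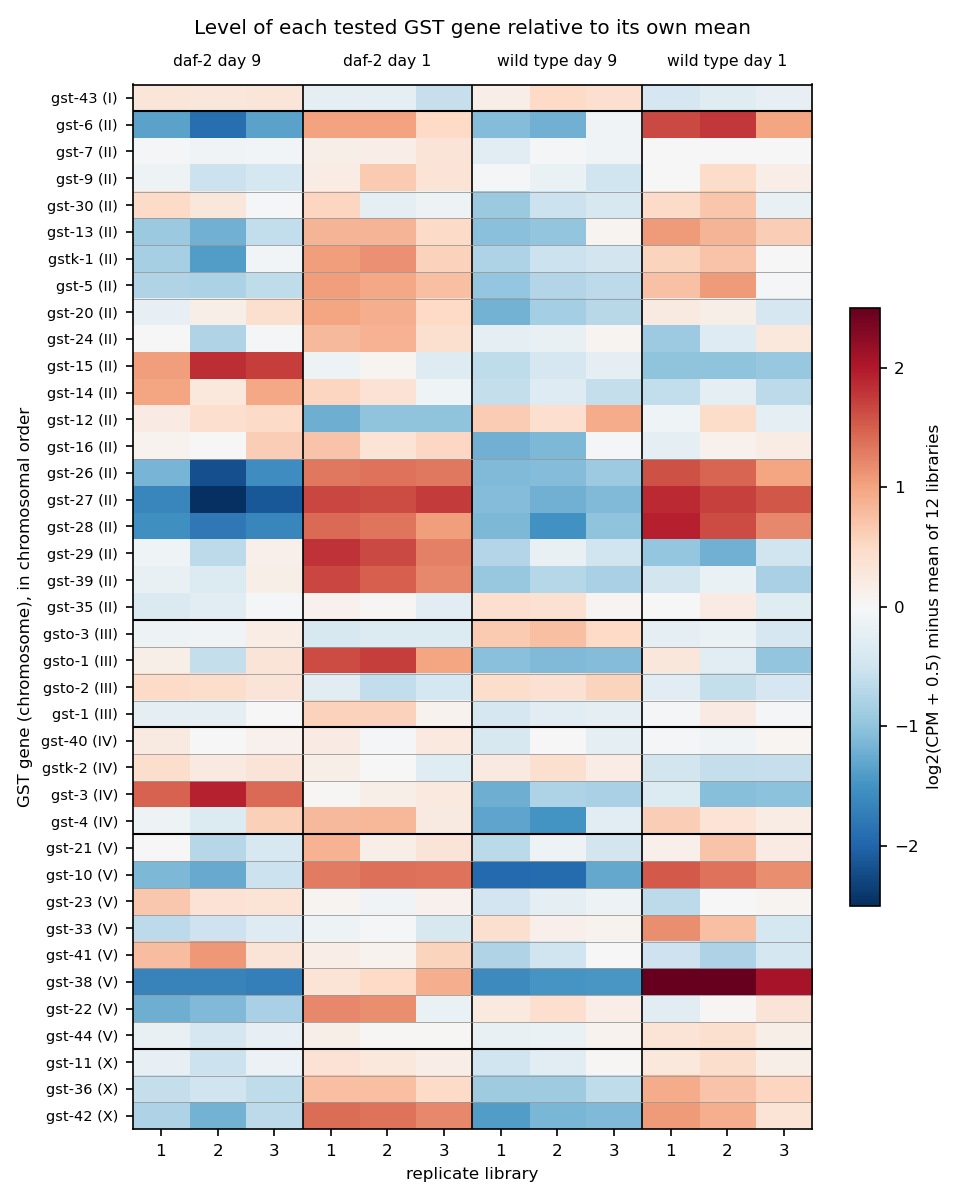
Level of each of the 39 tested GST genes in each of the 12 libraries, as log2(CPM + 0.5) minus the gene's mean over the libraries (red above, blue below), in chromosomal order. Thick lines separate chromosomes and thin lines separate genes that are not in the same run. The day 9 columns are mostly blue and the day 1 columns mostly red. Called higher at day 9 than at day 1 in both genotypes were gst-12, gst-15, gst-43 and gsto-2. Of these, gsto-2 passed the filter on low counts only through its day 9 libraries. Other genes, among them gstk-2 and gsto-3, had higher means at day 9 in both genotypes without a call in both.

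Summed levels of tissue markers moved with age as well. For the counts below, 21.5% of all tested genes fell and 21.9% rose with age in daf-2. In wild type 25.6% fell and 31.2% rose. Of 11 intestine markers, 9 were lower at day 9 than at day 1 in daf-2 and 4 in wild type, where 1 was higher. Their sum was 472.8 to 811.8 CPM in daf-2 at day 9, 1962 to 3029 CPM in daf-2 at day 1, 1617 to 1778 CPM in wild type at day 9 and 3061 to 3701 CPM in wild type at day 1. Of 11 body wall muscle markers, 8 fell with age in daf-2 and 9 in wild type, and their sum was 856.3 to 1217 CPM in daf-2 at day 9, 3029 to 5061 CPM in daf-2 at day 1, 999.6 to 1093 CPM in wild type at day 9 and 2420 to 3603 CPM in wild type at day 1. Hypodermis markers fell for 3 of 8 tested genes in daf-2 and 4 of 8 in wild type, with sums of 192.8 to 199.4 CPM in daf-2 at day 9, 302.7 to 391.9 CPM in daf-2 at day 1, 164.9 to 173.6 CPM in wild type at day 9 and 301.6 to 346.5 CPM in wild type at day 1. Neuron markers went the other way in wild type, where 5 of 10 rose, and 1 of 10 rose in daf-2. Their sum was 353.8 to 380.7 CPM in daf-2 at day 9, 294.5 to 326.1 CPM in daf-2 at day 1, 359.7 to 397.3 CPM in wild type at day 9 and 252.1 to 272.2 CPM in wild type at day 1. Of 12 germ line markers, 2 fell and 1 rose with age in daf-2, and 7 fell in wild type, with sums of 4793 to 5641 CPM in daf-2 at day 9, 4040 to 6396 CPM in daf-2 at day 1, 4873 to 5506 CPM in wild type at day 9 and 7106 to 9134 CPM in wild type at day 1. None of these markers was at 0 in all libraries, and rol-6 and wrt-2 of the hypodermis list were below the filter. The part of the tissue markers in the changes of the GST genes was not tested.

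The comparison of daf-2 with wild type asked which members differ at each age in animals with reduced daf-2 activity. At day 9, 8 of the 39 tested members were higher in daf-2 and 3 were lower, where 4.54% of all tested genes were higher and 6.26% lower. At day 1, 9 were higher and 2 lower, where 10.3% of all tested genes were higher and 5.06% lower. In all, 28.2% of the tested members were called at each age, against 10.8% of all genes at day 9 and 15.4% at day 1. The median log2 change of the members was 0.06 at day 9, against 0.01 over all genes, and 0.25 at day 1, against 0.04 over all genes. Groups did not overlap for 22 of 39 members at day 9 and for 16 of 39 at day 1, where the share among all genes was 37.3% and 30.9%. Higher in daf-2 at both ages were gst-3, gst-14, gst-15, gst-20, gst-39, gst-41 and gsto-1, which is 7 of 8 at day 9 and 7 of 9 at day 1. Of these, gst-14 passed the filter on low counts only through daf-2 libraries, so its calls rest on the genotype that let it be tested. No member was lower at both ages. How many of all tested genes were called at both ages is not given here, so this overlap cannot be read as particular to the family. Many of these calls were near the threshold, and 5 of 11 at each age held whichever single library was left out. The counts of members higher in daf-2 came down to 4 at day 9 without wild-type replicate 1 or 2 and to 5 without daf-2 replicate 3. At day 1 they came down to 3 without daf-2 replicate 2, to 4 without daf-2 replicate 1 or wild-type replicate 2, and to 5 without wild-type replicate 3. The count of members lower in daf-2 at day 9 came down to 1 without wild-type replicate 2.

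The largest rise in daf-2 at day 9 was that of gst-3 (chromosome IV, 10139380 to 10140243), a neighbour of gst-4. It had 6.19, 8.71 and 5.99 CPM in daf-2, against 0.534, 0.919 and 0.88 CPM in wild type, groups far apart, for a log2 change of 3.16 ± 0.33 (adjusted p = 6.3e-05) and a fold of 8.91. At day 1 it had 1.98, 2.16 and 2.36 CPM in daf-2, against 1.41, 0.66 and 0.684 CPM in wild type (log2 change 1.25 ± 0.33, adjusted p = 0.025). The day 1 groups did not overlap, but the call was lost without daf-2 replicate 1 or 2 or wild-type replicate 2 or 3 (log2 change 1.05 to 1.31, adjusted p 0.0534 to 0.0975).

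In the first run on chromosome II, gst-15, gst-14 and gst-20 were higher in daf-2 at both ages. The gst-15 gene had 10.03, 17.8 and 16.5 CPM in daf-2 at day 9, against 2.79, 3.33 and 3.9 CPM in wild type (log2 change 2.15 ± 0.23, adjusted p = 9.3e-05). At day 1 it had 4.17, 4.84 and 3.6 CPM in daf-2, against 2.03, 2.04 and 2.15 CPM in wild type (log2 change 1.01 ± 0.24, adjusted p = 0.016), a call lost without replicate 2 of either genotype (log2 change 0.9 to 1, adjusted p 0.0529 to 0.0566). The genotypes did not overlap at either age. For gst-20 (13608154 to 13609824) the levels at day 9 were 19.3, 24.8 and 29.5 CPM in daf-2, against 9.49, 12.1 and 13.6 CPM in wild type (log2 change 1.06 ± 0.22, adjusted p = 0.007). The day 1 levels of gst-20 were 44.8, 42.2 and 31.7 CPM in daf-2, against 26.1, 24.5 and 16.5 CPM in wild type (log2 change 0.82 ± 0.21, adjusted p = 0.024), and that call was lost without daf-2 replicate 1 or 2 or wild-type replicate 2 or 3 (log2 change 0.64 to 0.89, adjusted p 0.0535 to 0.095). The gst-14 gene (13614781 to 13616100) was scarce, with 1.48, 0.703 and 1.47 CPM in daf-2 at day 9, against 0.164, 0.306 and 0.168 CPM in wild type (log2 change 2.47 ± 0.5, adjusted p = 0.0065). Its day 1 change of 1.78 ± 0.54 (adjusted p = 0.043) was lost without daf-2 replicate 1 or 2 or wild-type replicate 1 or 3 (log2 change 1.49 to 1.72, adjusted p 0.081 to 0.153).

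The most abundant member of that run, gst-24, differed between genotypes at day 1, with 416, 430.2 and 313 CPM in daf-2, against 126, 189 and 283 CPM in wild type. The groups did not overlap, but the wild-type libraries spread widely, and the log2 change of 0.95 ± 0.27 (adjusted p = 0.032) was lost without daf-2 replicate 1 or 2 or wild-type replicate 1 or 2 (log2 change 0.71 to 0.92, adjusted p 0.0623 to 0.109). At day 9 gst-24 overlapped between genotypes (log2 change -0.13 ± 0.26, adjusted p = 0.81). In the same run gst-12 was lower in daf-2 at day 1, with 1.28, 1.58 and 1.59 CPM in daf-2, against 3.38, 5.22 and 3.08 CPM in wild type (log2 change -1.38 ± 0.26, adjusted p = 0.004). Its day 9 change was -0.33 ± 0.23 (adjusted p = 0.42).

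The second run held 2 members raised in daf-2 at day 1. There gst-29 (15168538 to 15169861) had 11.8, 10.5 and 7.88 CPM in daf-2, against 1.3, 1.02 and 1.98 CPM in wild type, for a log2 change of 2.78 ± 0.33 (adjusted p = 0.00018) and a fold of 6.87. At day 9 its groups overlapped, with 2.76, 1.73 and 3.36 CPM in daf-2, against 1.6, 2.6 and 1.97 CPM in wild type (log2 change 0.34 ± 0.31, adjusted p = 0.55). The next gene, gst-39 (15171163 to 15171916), had 26.7, 23.6 and 19.2 CPM in daf-2 at day 1, against 5.73, 7.14 and 4.38 CPM in wild type (log2 change 2.02 ± 0.21, adjusted p = 7.6e-05). At day 9 gst-39 had 7.03, 6.26 and 8.97 CPM in daf-2, against 3.94, 4.75 and 4.4 CPM in wild type (log2 change 0.77 ± 0.21, adjusted p = 0.035), and that call was lost without daf-2 replicate 1 or 3 or any 1 wild-type replicate (log2 change 0.6 to 0.83, adjusted p 0.0667 to 0.133). With the replicate number as a block, the change of gst-39 at day 9 was 0.78 ± 0.22 (edgeR, adjusted p = 0.051), and it was not called.

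At the other end of the same run gst-27 was lower in daf-2 at day 9, with 4.16, 1.21 and 2.82 CPM in daf-2, against 6.24, 5.71 and 6.2 CPM in wild type. The groups did not overlap, and the log2 change of -1.2 ± 0.3 (adjusted p = 0.024) was lost without daf-2 replicate 3 or any 1 wild-type replicate (log2 change -1.26 to -1.18, adjusted p 0.0509 to 0.0685). At day 1 the change of gst-27 was -0.03 ± 0.27 (adjusted p = 0.94). The changes of gst-26 and gst-28 at day 9 were -0.65 ± 0.26 (adjusted p = 0.13) and -0.84 ± 0.32 (adjusted p = 0.12). The plot of both runs shows how neighbours differed in direction.

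**Figure D3:**
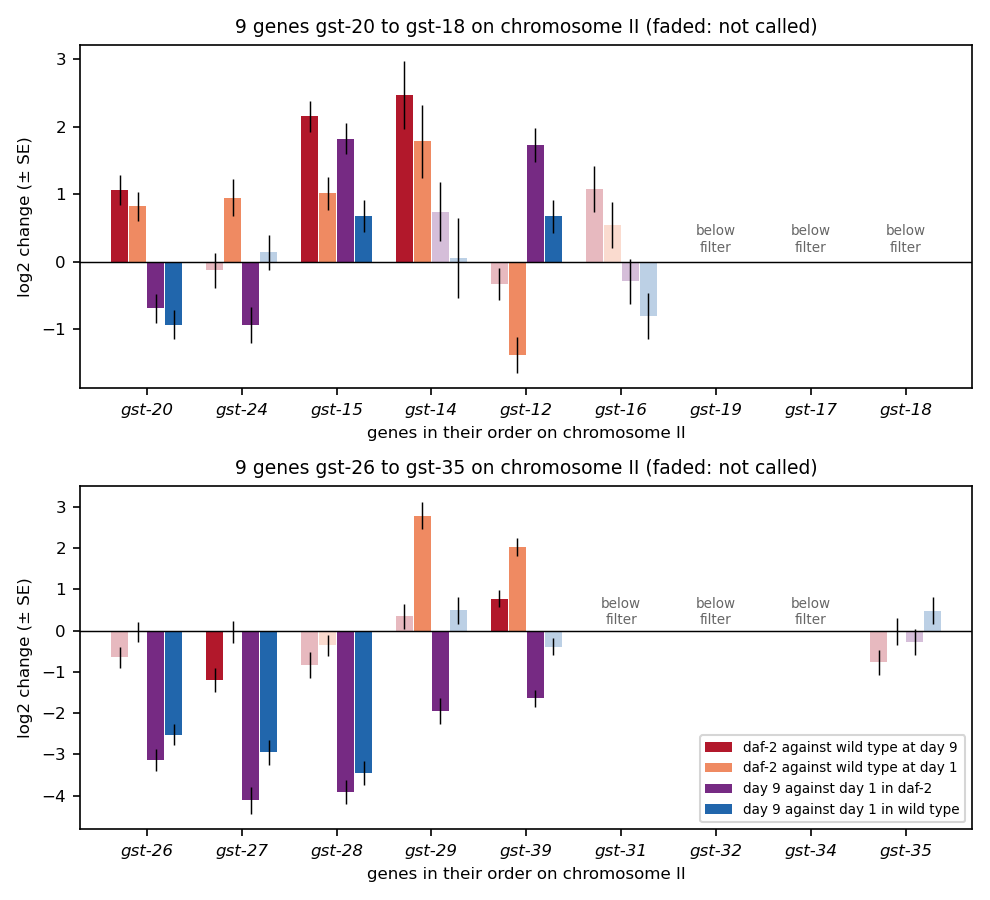
Log2 change ± SE of each gene in the 2 runs of 9 GST genes on chromosome II, in chromosomal order, for daf-2 over wild type at day 9 and day 1 and for day 9 over day 1 in daf-2 and in wild type. Solid bars were called at an adjusted p under 0.05 and faded bars were not. The gst-14 gene passed the filter on low counts only through daf-2 libraries. In the upper panel gst-20, gst-15 and gst-14 were higher in daf-2 at both ages, and in the lower panel gst-26, gst-27 and gst-28 were lower at day 9 than at day 1 in both genotypes while gst-29 and gst-39 were higher in daf-2 at day 1.

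Of the omega class, gsto-1 was higher in daf-2 at both ages. It had 5.16, 2.88 and 5.85 CPM in daf-2 at day 9, against 1.97, 1.88 and 1.89 CPM in wild type (log2 change 1.27 ± 0.37, adjusted p = 0.044). That call was lost without daf-2 replicate 1 or 3 or any 1 wild-type replicate (log2 change 1.05 to 1.29, adjusted p 0.105 to 0.136). At day 1 it had 15.3, 16.3 and 9.6 CPM in daf-2, against 5.68, 3.66 and 2.05 CPM in wild type, again without overlap (log2 change 1.87 ± 0.36, adjusted p = 0.0051). By contrast gsto-3 was lower in daf-2 at day 9, with 8.15, 8.38 and 10.2 CPM, against 14.3, 15.4 and 12.7 CPM in wild type (log2 change -0.66 ± 0.15, adjusted p = 0.013). This call was lost without daf-2 replicate 1 or 2 or wild-type replicate 2 (log2 change -0.61 to -0.6, adjusted p 0.0552 to 0.0661).

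On chromosome V, gst-38 and gst-22 separated the genotypes at different ages. At day 1 gst-38 (15915162 to 15916070) was far lower in daf-2, with 11.7, 13 and 17.5 CPM, against 65.4, 76 and 39.8 CPM in wild type (log2 change -2.1 ± 0.22, adjusted p = 6.7e-05). At day 9 both genotypes were low and did not overlap, with 2.52, 2.52 and 2.45 CPM in daf-2, against 2.71, 2.95 and 3.02 CPM in wild type (log2 change -0.21 ± 0.24, adjusted p = 0.63). For gst-22 (16231032 to 16232282) it was day 9 that separated the genotypes, with 3.76, 4.11 and 5.12 CPM in daf-2, against 11.3, 12.8 and 10.7 CPM in wild type (log2 change -1.41 ± 0.31, adjusted p = 0.011). At day 1 gst-22 had 22.4, 21.6 and 8.36 CPM in daf-2, against 7.76, 9.66 and 11.9 CPM in wild type, groups that overlapped through daf-2 replicate 3 (log2 change 0.83 ± 0.31, adjusted p = 0.082). Without that library gst-22 was called higher in daf-2 at day 1 (1.13, adjusted p = 0.00278), the opposite direction to day 9.

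The remaining calls between genotypes were gst-10 and gst-41. At day 9 gst-10 had 21.7, 19.6 and 32.8 CPM in daf-2, against 12, 12.3 and 19.4 CPM in wild type. All 3 daf-2 libraries were above the wild-type ones by a narrow margin, and the log2 change of 0.76 ± 0.21 (adjusted p = 0.036) was lost without daf-2 replicate 3 or wild-type replicate 1 or 2 (log2 change 0.5 to 0.65, adjusted p 0.138 to 0.155). At day 1 the change of gst-10 was -0.01 ± 0.2 (adjusted p = 0.98). The gst-41 gene (chromosome V, 7398396 to 7399302) had 2, 2.63 and 1.35 CPM in daf-2 at day 9, against 0.37, 0.536 and 0.964 CPM in wild type (log2 change 1.67 ± 0.39, adjusted p = 0.016). At day 1 its change was 1.38 ± 0.42 (adjusted p = 0.043). The day 9 call of gst-41 was lost without daf-2 replicate 2 or wild-type replicate 1 or 2 (log2 change 1.41 to 1.57, adjusted p 0.0719 to 0.0759), and the day 1 call without any 1 of the 6 libraries (log2 change 1.12 to 1.54, adjusted p 0.0584 to 0.147).

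The reporter gene gst-4 was not among the calls. It had 37, 31.6 and 61 CPM in daf-2 at day 9, against 16, 14 and 32.9 CPM in wild type (log2 change 1.04 ± 0.32, adjusted p = 0.057), and the groups overlapped through the highest wild-type library, replicate 3. Without that library the change was 1.53 with an adjusted p of 0.00663, and DESeq2 gave 1.03 with an adjusted p of 0.0117. At day 1 it had 71.6, 71.8 and 47.1 CPM in daf-2, against 61.8, 51.3 and 45.9 CPM in wild type (log2 change 0.26 ± 0.31, adjusted p = 0.58). The abundant genes gst-1 and gst-7 were also not called: the changes of gst-1 were 0.15 ± 0.14 (adjusted p = 0.55) at day 9 and 0.38 ± 0.14 (adjusted p = 0.075) at day 1, and those of gst-7 were 0.06 ± 0.09 (adjusted p = 0.71) at day 9 and 0.22 ± 0.09 (adjusted p = 0.1) at day 1. For gst-42 the changes were 0.37 ± 0.19 (adjusted p = 0.26) at day 9 and 0.53 ± 0.19 (adjusted p = 0.072) at day 1, for gst-5 0.06 ± 0.22 (adjusted p = 0.9) and 0.27 ± 0.22 (adjusted p = 0.4) at the same ages, and for gstk-1 -0.08 ± 0.29 (adjusted p = 0.9) and 0.49 ± 0.29 (adjusted p = 0.25).

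Intestine markers differed between genotypes at day 9, where 5 of 11 were lower and 1 was higher in daf-2, and their summed level was 472.8 to 811.8 CPM in daf-2, against 1617 to 1778 CPM in wild type. At day 1, 2 of 11 were higher in daf-2, though their summed level was 1962 to 3029 CPM in daf-2, against 3061 to 3701 CPM in wild type. There 4 of 12 germ line markers were lower, with a germ line sum of 4040 to 6396 CPM in daf-2, against 7106 to 9134 CPM in wild type. All 12 had a negative log2 change at day 1, with 10 at an unadjusted p under 0.05 and 10 called by DESeq2. Neuron markers counted 1 higher and 1 lower of 10 at day 9 and 3 higher at day 1. No body wall muscle marker was called at either age (0 at an unadjusted p under 0.05 and 0 by DESeq2 at day 9, 3 and 1 at day 1), and 1 of 8 hypodermis markers was lower at day 1. Among all tested genes 4.54% were higher and 6.26% lower in daf-2 at day 9, and 10.3% higher and 5.06% lower at day 1. What part the marker differences have in the GST values was not tested.

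Whether age acted differently in the 2 genotypes was tested by the interaction. Of the 39 tested members, 5 were called, 2 higher and 3 lower, which is 12.8%, where 5.29% of all tested genes were called, 0.573% higher and 4.72% lower. The 5 were gst-38 and gst-3 on the higher side and gst-29, gst-22 and gst-39 on the lower side. The plot of 1 age change against the other places them away from the diagonal.

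**Figure D4:**
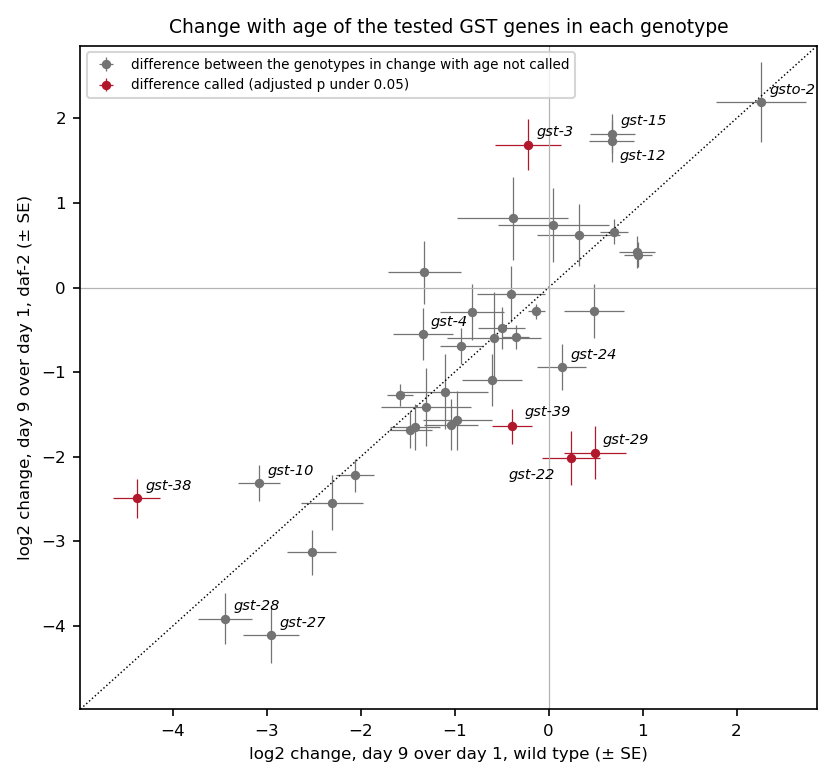
Log2 change with age (day 9 over day 1) of each of the 39 tested GST genes, in daf-2 on the vertical axis and in wild type on the horizontal axis, with bars of ± SE. The dotted line marks equal change. Most genes lie in the lower left, where both genotypes fell, and the 5 red genes, gst-3, gst-38, gst-22, gst-29 and gst-39, are those whose change with age was called different between the genotypes.

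For gst-38 the fall with age was smaller in daf-2, at -2.49 ± 0.23 (adjusted p = 7.7e-06), than in wild type, at -4.38 ± 0.25 (adjusted p = 1.7e-07). The difference was 1.89 ± 0.32 (adjusted p = 0.0066). At day 1 daf-2 was at 17.5 CPM or less and wild type at 39.8 CPM or more. For gst-3 the change with age was 1.69 ± 0.3 (adjusted p = 0.00082) in daf-2 and -0.22 ± 0.35 (adjusted p = 0.6) in wild type, a difference of 1.91 ± 0.46 (adjusted p = 0.032). This call was lost without any 1 of 8 libraries, wild-type day 1 replicate 1, the 3 wild-type day 9 replicates, and daf-2 replicates 1 and 2 of both ages (1.48 to 2.05, adjusted p 0.053 to 0.0806).

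On the lower side the change of gst-29 with age was -1.95 ± 0.31 (adjusted p = 0.00037) in daf-2 and 0.49 ± 0.33 (adjusted p = 0.22) in wild type, a difference of -2.44 ± 0.45 (adjusted p = 0.01). That of gst-22 was -2.01 ± 0.32 (adjusted p = 0.00035) in daf-2 and 0.24 ± 0.31 (adjusted p = 0.52) in wild type, a difference of -2.25 ± 0.44 (adjusted p = 0.013). Both genes thus fell with age in daf-2 and had no called change in wild type. The same held for gst-39, which changed by -1.64 ± 0.21 (adjusted p = 7.4e-05) in daf-2 and by -0.39 ± 0.21 (adjusted p = 0.14) in wild type, a difference of -1.26 ± 0.3 (adjusted p = 0.03). The gst-39 call was lost without any 1 of 7 libraries, wild-type day 1 replicate 3, wild-type day 9 replicates 2 and 3, and daf-2 replicates 1 and 2 of both ages (-1.25 to -1.08, adjusted p 0.0551 to 0.0832).

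**Figure D5:**
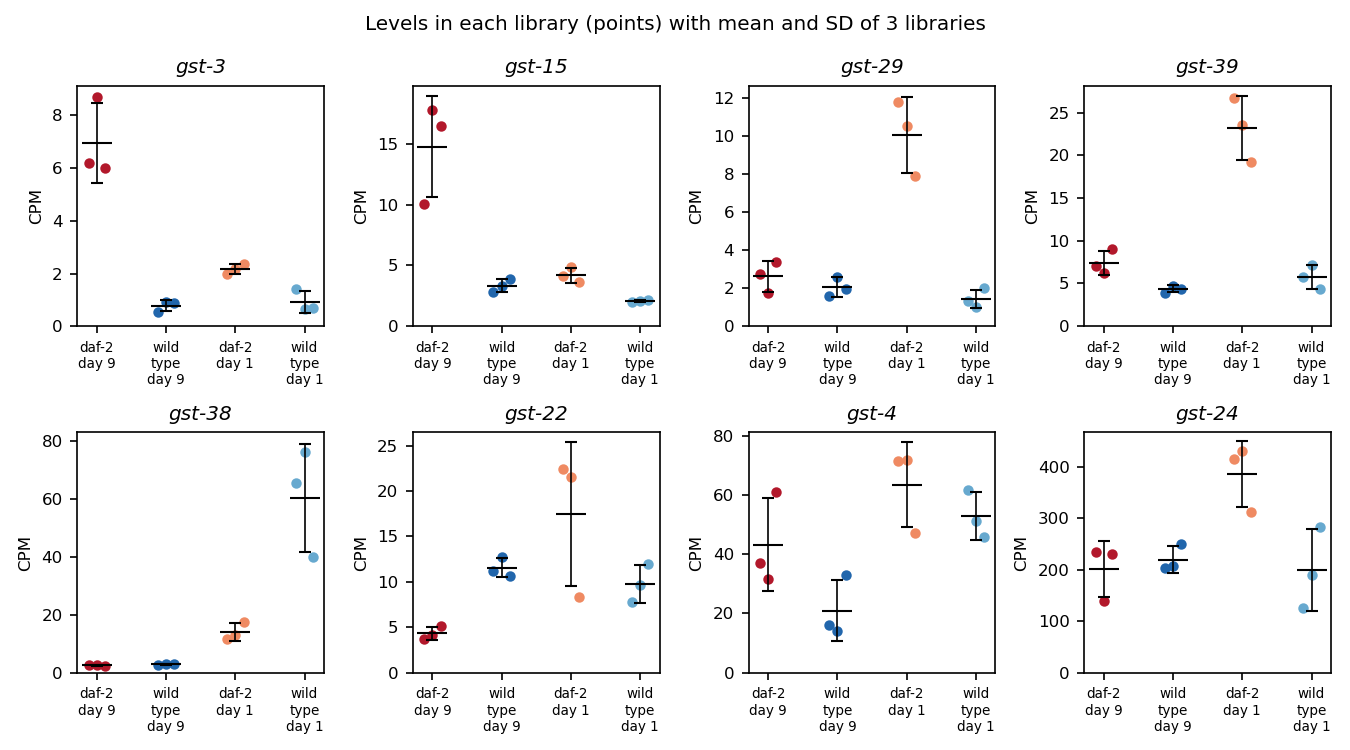
Level in CPM of 8 GST genes in each library, by genotype and age, with the mean (bar) and SD of 3 libraries. The daf-2 points of gst-3 and gst-15 stand highest at day 9, those of gst-29 and gst-39 at day 1, and the wild-type points of gst-38 at day 1, while gst-4 and gst-24 spread widely within groups.

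The members not yet described had few calls. In the edgeR fit of all 12 libraries no comparison gave a call for gst-16, gst-23, gst-33, gst-35, gst-40 or gst-44. The largest change among them was that of gst-23 at day 9, with 0.879, 0.613 and 0.601 CPM in daf-2, against 0.123, 0.23 and 0.293 CPM in wild type (log2 change 1.66 ± 0.52, adjusted p = 0.063), which was called when only the libraries compared were fitted (1.65, adjusted p = 0.0364). In that fit gst-33 was called lower at day 9 (-1.27, adjusted p = 0.0355), and without wild-type day 1 replicate 3 it was called lower in daf-2 at day 1 (-1.72, adjusted p = 0.0153) and lower with age in wild type (-1.06, adjusted p = 0.03). In the first run on chromosome II gst-16 had 4.96, 4.6 and 7.38 CPM in daf-2 at day 9, against 1.73, 1.84 and 4.52 CPM in wild type (log2 change 1.07 ± 0.34, adjusted p = 0.065), without overlap. That change of gst-16 was called with the replicate number as a block (1.12, adjusted p = 0.0315), by DESeq2 (1.06, adjusted p = 0.0195) and without wild-type replicate 3 (1.66, adjusted p = 0.00367). Its change with age in wild type was called under the same 3 settings (-0.89, adjusted p = 0.0242 with the block, -0.86, adjusted p = 0.0273 by DESeq2, and -1.41, adjusted p = 0.00179 without day 9 replicate 3). Falls with age were called in daf-2 for gst-9 (-1.09 ± 0.31, adjusted p = 0.014) and gst-11 (-1.23 ± 0.44, adjusted p = 0.04), and in wild type for gst-30 (-1.32 ± 0.39, adjusted p = 0.012). The gst-9 call was lost without replicate 2 of either age (-0.95 to -0.91, adjusted p 0.0569 to 0.0629). The gst-11 call was lost without any 1 of the 3 day 1 replicates or without day 9 replicate 1 or 2 (-1.35 to -0.89, adjusted p 0.0561 to 0.161), and the gst-30 call without day 9 replicate 1 (-1.11, adjusted p = 0.0513). Both gst-6 and gst-36 fell in both genotypes without overlap, with log2 changes of -2.54 ± 0.33 (adjusted p = 1e-04) in daf-2 and -2.3 ± 0.33 (adjusted p = 0.00011) in wild type for gst-6, and -1.27 ± 0.13 (adjusted p = 2.1e-05) in daf-2 and -1.58 ± 0.14 (adjusted p = 3.2e-06) in wild type for gst-36. For gst-20 the fall with age was -0.69 ± 0.21 (adjusted p = 0.02) in daf-2, lost without replicate 1 or 2 of either age (-0.69 to -0.54, adjusted p 0.0511 to 0.0829), and -0.93 ± 0.22 (adjusted p = 0.0034) in wild type.

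The enzymes that make and recycle glutathione had most of their calls with age, as did all tested genes. Of all tested genes, 43.3% were called with age in daf-2 and 56.8% in wild type. Between genotypes 10.8% of them were called at day 9 and 15.4% at day 1. Of 10 genes of glutathione synthesis and NADPH supply, 6 fell and 1 rose with age in daf-2, and 7 fell and 1 rose in wild type. Glutathione synthetase gss-1 had 48.2, 49.2 and 51.6 CPM in daf-2 at day 9, against 76.3, 85.9 and 83.3 CPM at day 1, and 51.3, 48.2 and 53.6 CPM in wild type at day 9, against 88.3, 105 and 85.5 CPM at day 1. The ages did not overlap, and the log2 change was -0.72 ± 0.1 (adjusted p = 1e-04) in daf-2 and -0.86 ± 0.1 (adjusted p = 1.8e-05) in wild type. The cystathionine beta-synthase gene cbs-2, of the pathway that supplies cysteine, rose with a log2 change of 2.95 ± 0.36 (adjusted p = 6.2e-05) in daf-2 and 3.04 ± 0.36 (adjusted p = 2.8e-05) in wild type. Between genotypes 1 of the 10 was higher and 2 were lower in daf-2 at day 9, and 0 were called at day 1 (2 at an unadjusted p under 0.05, 2 by DESeq2). The 2 lower at day 9 were the cystathionine gamma-lyase genes cth-1 and cth-2, and the higher one was cbs-1, whose call was lost without wild-type replicate 2 (0.73, adjusted p = 0.0663).

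Of 8 glutathione peroxidases, which reduce peroxides, 2 rose and 4 fell with age in daf-2, and 1 rose and 4 fell in wild type. That is 75% called in daf-2 and 62.5% in wild type, against 43.3% and 56.8% of all tested genes. The log2 changes of gpx-7 were -3.16 ± 0.36 (adjusted p = 3.9e-05) in daf-2 and -2.35 ± 0.37 (adjusted p = 0.00021) in wild type, and those of gpx-5 were -1.03 ± 0.13 (adjusted p = 7.6e-05) in daf-2 and -1.3 ± 0.13 (adjusted p = 9.2e-06) in wild type. None was called between genotypes (at day 9, 2 at an unadjusted p under 0.05 and 0 by DESeq2, and at day 1, 2 and 1). Of 14 tested thioredoxin, glutaredoxin and peroxiredoxin genes, 3 rose and 5 fell with age in daf-2, and 4 rose and 5 fell in wild type. These calls make 57.1% in daf-2 and 64.3% in wild type, against the same 43.3% and 56.8%. Between genotypes 1 was higher and 1 lower at day 9 (14.3%, against 10.8% of all tested genes), and 1 was higher at day 1 (7.14%, against 15.4%). The higher one at day 9 was the glutaredoxin glrx-3, and its call was lost without daf-2 replicate 2 or 3 or any 1 wild-type replicate (0.36 to 0.44, adjusted p 0.0518 to 0.0925). The higher one at day 1 was the thioredoxin trx-1, and its call was lost without daf-2 replicate 1 or 2 or any 1 wild-type replicate (1.06 to 1.58, adjusted p 0.0537 to 0.177), as well as by DESeq2 (adjusted p = 0.0574), with no filter on low counts (adjusted p = 0.0698) and when only the libraries compared were fitted (adjusted p = 0.126). Thioredoxin reductase trxr-1 rose with a log2 change of 0.9 ± 0.11 (adjusted p = 7.5e-05) in daf-2 and 0.86 ± 0.11 (adjusted p = 6.5e-05) in wild type, while the glutaredoxin glrx-5 fell with log2 changes of -0.95 ± 0.11 (adjusted p = 3.3e-05) in daf-2 and -0.98 ± 0.11 (adjusted p = 1.6e-05) in wild type.

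Transporters of the ABC family, some of which move glutathione conjugates across membranes, included hmt-1, which was higher in daf-2 at both ages. The heavy metal tolerance gene hmt-1 had 51.9, 50.9 and 52.5 CPM in daf-2 at day 9, against 16.3, 13.5 and 15 CPM in wild type (log2 change 1.79 ± 0.13, adjusted p = 6.4e-06). At day 1 it had 54.4, 71.5 and 70.8 CPM in daf-2, against 12.2, 13.3 and 10.6 CPM in wild type (log2 change 2.45 ± 0.13, adjusted p = 3.5e-07). All daf-2 libraries were well above all wild-type ones. Of 9 such transporter genes, the mrp genes and hmt-1, 1 was higher and 1 lower in daf-2 at day 9, and 3 were higher at day 1. That is 22.2% at day 9 and 33.3% at day 1, against 10.8% and 15.4% of all tested genes. At day 1, 7 of the 9 were at an unadjusted p under 0.05 and 5 were called by DESeq2, which called 1725 of all genes higher and 1669 lower. By DESeq2 mrp-4 (-0.57, adjusted p = 0.0178) and mrp-6 (-0.59, adjusted p = 0.0141) were lower in daf-2 at day 1. With the replicate number as a block mrp-4 was also called there (-0.53, adjusted p = 0.0284). The lower one, mrp-6, lost its call without any 1 of the 6 day 9 libraries (-0.67 to -0.53, adjusted p 0.0565 to 0.125). At day 1 the call of mrp-2 was lost without daf-2 replicate 1 or wild-type replicate 2 (0.43 to 0.49, adjusted p 0.093 to 0.103), and that of mrp-5 without daf-2 replicate 1 or 2 or wild-type replicate 2 or 3 (0.51 to 0.65, adjusted p 0.0763 to 0.119). With age 2 rose and 2 fell in daf-2, and 5 rose and 1 fell in wild type. These calls make 44.4% in daf-2 and 66.7% in wild type, against 43.3% and 56.8% of all tested genes. The log2 change of mrp-2 was 1.17 ± 0.16 (adjusted p = 0.00013) in daf-2 and 1.87 ± 0.17 (adjusted p = 3.7e-06) in wild type, where it had 53.5, 53.2 and 55 CPM at day 9, against 16, 11.8 and 16.3 CPM at day 1.

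Of 11 regulators of gst-4, 1 was higher in daf-2 at each age, daf-16 at day 9 (0.47 ± 0.11, adjusted p = 0.02) and pqm-1 at day 1 (0.96 ± 0.24, adjusted p = 0.018), both genes of transcription factors that act downstream of the receptor. The daf-16 call was lost without daf-2 replicate 2 or 3 or wild-type replicate 2 or 3 (log2 change 0.39 to 0.48, adjusted p 0.0537 to 0.102), and the pqm-1 call without daf-2 replicate 1 or 2 or wild-type replicate 2 (log2 change 0.86 to 0.91, adjusted p 0.0594 to 0.0765). With the replicate number as a block elt-3 was also called, lower in daf-2 at day 9 (-0.58, adjusted p = 0.0358). The block further called wdr-23 (-0.27, adjusted p = 0.048) and xrep-4 (-0.32, adjusted p = 0.0298) lower in daf-2 at day 1. By DESeq2, 4 of the 11 were called at day 1, where it called 1725 of all genes higher and 1669 lower. Among the 4, skn-1 (-0.38, adjusted p = 0.0415), wdr-23 (-0.34, adjusted p = 0.02) and xrep-4 (-0.38, adjusted p = 0.0174) were lower in daf-2. The 1 call at each age is 9.09% of the regulators, against 10.8% of all tested genes at day 9 and 15.4% at day 1. With age 4 rose and 1 fell in daf-2, and 4 rose and 3 fell in wild type. These calls make 45.5% in daf-2 and 63.6% in wild type, against 43.3% and 56.8% of all tested genes. The transcript of skn-1 itself was at 239, 262 and 267 CPM in daf-2 at day 9, against 233, 208 and 231 CPM in wild type (log2 change 0.19 ± 0.12, adjusted p = 0.37), and its change was -0.32 ± 0.12 (adjusted p = 0.097) at day 1. It fell with age in wild type (-0.38 ± 0.12, adjusted p = 0.021), a call lost without replicate 2 of either age (adjusted p = 0.0843 each) and with upper-quartile scaling (-0.2, adjusted p = 0.117), and its change in daf-2 was 0.13 ± 0.12 (adjusted p = 0.4). Its repressor wdr-23 rose with age, with log2 changes of 0.44 ± 0.1 (adjusted p = 0.0032) in daf-2 and 0.37 ± 0.1 (adjusted p = 0.0057) in wild type, and its genotype changes were -0.21 ± 0.1 (adjusted p = 0.19) at day 9 and -0.27 ± 0.1 (adjusted p = 0.072) at day 1. In the interaction, 2 of 10 synthesis and supply genes, 0 of 8 peroxidases (2 at an unadjusted p under 0.05, 0 by DESeq2), 1 of 14 thioredoxin, glutaredoxin and peroxiredoxin genes, 0 of 9 transporters (3 and 1) and 1 of 11 regulators were called, all 4 calls on the lower side. Of all tested genes 5.29% were called in the interaction, 4.72% on the lower side. The interaction of trx-3 was not called without daf-2 replicate 1 or 2 of either age or wild-type day 9 replicate 2 (-2.69 to -2.39, adjusted p 0.0537 to 0.0759), and that of pqm-1 without any 1 of 9 libraries, daf-2 replicates 1 and 2 of both ages, all 3 of wild type at day 9, and wild-type day 1 replicates 1 and 2 (-1.32 to -1.06, adjusted p 0.066 to 0.103).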

How the data were processed

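RNA from whole adult animals was sequenced in 12 libraries, 3 for each of 4 groups, which were assigned from the labels. The authors deposited 1 table a library, which holds raw whole-number counts for each gene; library totals differ, so no scaling had been applied. The build was WBcel235 (ce11), per the submitters' processing notes, which also list RSEM 1.3.1, DESeq2 1.22.2 and STAR 2.7.0e without their roles. The treatment of reads that match several genes is not given in these sources. Per the labels' protocols the library kit did not mark strand.

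Identifiers were matched to the WBcel235 annotation, which held 46603 of the 46778 listed genes and named 43818. Coordinates are 1-based. Exon length is the union of a gene's exons. Total counts were 20322128 to 47447136, and no pair of replicates agreed within sampling noise. The labels call the samples biological repeats without naming separate cultures, so p-values measure the spread between these samples.

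The test was the quasi-likelihood test of edgeR 4.0.16 (R 4.3.3) after TMM scaling, with a filter at a minimum count of 10 and 1 fit of 4 group means over 12 libraries, which left 15523 genes. P-values were Benjamini-Hochberg adjusted over all of them, with a threshold of 0.05. SE is the absolute log2 change over the root of F. The scripts were tested on simulated data. Alternatives were upper-quartile scaling, DESeq2 1.42.0, no filter, a minimum count of 50, a replicate block, only the libraries compared, and leaving out each library.

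Replicate numbers were checked by the correlation of deviations from the group means, over 18 same-number pairs (5 over 0.1, r from -0.313 to 0.577). All 3 same-number pairs of daf-2 and wild type at day 9 were over 0.1 (0.135 to 0.577). Wild-type replicate 2 there correlated more with daf-2 replicate 1 (0.24) than with daf-2 replicate 2 (0.135). At day 1 the same-number pairs of the 2 genotypes were at 0.227, 0.343 and -0.016. Any pairing by number is thus at most a hint from the data. Members and lists were chosen with earlier results of these data known. Full values were given to the 3 largest and 3 smallest called changes of each comparison that reached a group mean of 5 CPM in 1 of the groups compared, to gst-1, gst-4, gst-5, gst-7, gst-10, gst-42, gsto-1 and gstk-1, and to the 5 members with the highest level per kilobase. Of other pathway genes, at most 2 a list and comparison were named by smallest p, with skn-1 and wdr-23 always; genes whose call hung on 1 library or the block were named after their values were seen. The intestine marker opt-2 found no symbol and was left out, and the thioredoxin trx-5 was below the filter.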

Additional observations from a re-analysis of the deposited data

Results flagged for a closer look

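The change with age was called different between the genotypes for 5 members, by the interaction term of the edgeR fit after Benjamini-Hochberg adjustment across 15523 genes. The daf-2 age change less the wild-type age change, on the log2 scale, was 1.91 for gst-3 (adjusted p = 0.032), 1.89 for gst-38 (adjusted p = 0.0066), -2.25 for gst-22 (adjusted p = 0.013), -2.44 for gst-29 (adjusted p = 0.01) and -1.26 for gst-39 (adjusted p = 0.03). For gst-3 all 3 daf-2 libraries were higher at day 9 than at day 1, while the ages overlapped in wild type. For gst-22, gst-29 and gst-39 all 3 daf-2 libraries were lower at day 9 than at day 1. For gst-38 both genotypes were lower at day 9, and wild type by more. Of the 5 calls, 3 held in every alternative. The gst-3 call was lost in 9 of 17 alternatives and the gst-39 call in 8 of 17. Both were lost with the replicate block (edgeR, adjusted p = 0.0546 for gst-3 and 0.0518 for gst-39).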

How the results depend on the processing

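No called change reversed under any alternative, while 73 alternative values of members and 91 of pathway genes, all of them not called, had the opposite sign. The counts of members higher in daf-2 at day 1 (9) became 5 when only the libraries compared were fitted. In that fit gst-3, gst-24 and gst-41 were not called, and gst-14 was below the filter and so not tested. The count on the higher side of the interaction (2) became 1 with a replicate block and 4 with DESeq2. Why the calls changed was not tested further. Leaving out each library in turn gave 4 to 8 members higher and 1 to 3 lower in daf-2 at day 9, 3 to 11 higher and 2 to 3 lower at day 1, 5 higher in each case and 16 to 23 lower with age in daf-2, 4 to 5 higher and 13 to 18 lower with age in wild type, and 1 to 2 higher and 2 to 3 lower in the interaction. Of 2469 alternative values for 195 changes of single members, 2302 kept their side of the threshold, 130 lost the call and 37 gained it. Among the pathway genes 144 alternative values lost the call, 71 gained it and 3148 kept their side of the threshold.

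Same-number libraries of the 2 genotypes correlated at over 0.1 for all 3 numbers at day 9, and for numbers 1 and 2 at day 1. These values give at most a hint of pairing. Of the 12 libraries, 6 had their highest mean correlation with their own number. At day 9 the block changed the calls of gst-16, gst-39 and elt-3, and of no other member or pathway gene. With the replicate block the counts higher and lower were 8 and 3 in daf-2 at day 9, 7 and 2 at day 1, 5 and 22 with age in daf-2, 6 and 16 with age in wild type, and 1 and 2 in the interaction. Upper-quartile scaling moved the median log2 change of all genes with age by 0.13 in daf-2 and 0.17 in wild type, and gave 7 members higher and 20 lower in daf-2 and 6 and 14 in wild type. Over all genes that scaling called 4351 higher and 2602 lower with age in daf-2 (3395 and 3330 with TMM) and 5849 and 2967 in wild type (4848 and 3970). DESeq2 called 1725 genes higher and 1669 lower in daf-2 at day 1 (1600 and 786 by edgeR) and 481 and 1155 in the interaction (89 and 732). The fit on only the libraries compared was not run for the interaction, which compares all 4 groups. Low counts limit the 18 members under 1 CPM, of which 10 were not tested.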

Other observations

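The cystathionine gamma-lyase genes, which make cysteine for glutathione from cystathionine, changed with age in a way that differed between genotypes. In daf-2 cth-1 had 7.83, 2.38 and 4.37 CPM at day 9, against 32.3, 21.3 and 32.9 CPM at day 1. In wild type it had 18.2, 26.05 and 22.6 CPM at day 9, against 17.2, 13.7 and 12.3 CPM at day 1. The daf-2 libraries of cth-1 were thus the lowest of the day 9 libraries and the highest of the day 1 libraries. The log2 change with age was -2.6 ± 0.35 in daf-2 (edgeR, adjusted p = 0.00011) and 0.63 ± 0.33 in wild type (adjusted p = 0.12), and the interaction was -3.23 ± 0.48 (adjusted p = 0.0031). Its paralogue cth-2 had 78.3, 58.2 and 72.0 CPM in daf-2 at day 9, against 310.6, 325 and 292 CPM at day 1, and 118.8, 132 and 143 CPM in wild type at day 9, against 359, 320.3 and 257 CPM at day 1. It fell in both genotypes and more in daf-2 (interaction -0.91 ± 0.2, adjusted p = 0.021), a difference that was not called without daf-2 day 1 replicate 2 or wild-type day 9 replicate 2 or 3 (-0.9 to -0.84, adjusted p 0.0534 to 0.0616). At day 9 both genes were lower in daf-2 than in wild type, with log2 changes of -2.23 ± 0.35 for cth-1 (adjusted p = 0.0011) and -0.92 ± 0.14 for cth-2 (adjusted p = 0.001).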
